A study of Homo sapiens with 4 samples.

Results

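SERHL2, LRRC31, ZSCAN12P1, BCAS1, ANKFN1, UHMK1 and PLS1 are 7 genes whose roles in breast cancer cells are little known and whose mRNA signal was strongly shifted by a hairpin against FDXR. They were picked by name because of that shift and make up 7 of the 14679 genes with a named probe on the arrays. Each of the 7 is read by 1 named probe, which stands for a transcript cluster, so no second probe of the same gene could be set beside it.

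Gene expression was profiled on 4 Affymetrix arrays in T47D, an established human ER+ breast ductal carcinoma cell line. Cells carried, through viral infection, either the hairpin FDXR sh434, which targets the mitochondrial flavoprotein ferredoxin reductase, or a control hairpin (shControl, named Ctrl shRNA in the study), with 2 samples each that are labelled as biological replicates. All cells grew in the same serum-containing medium, and the labels name a retrovirus where the study's methods name a lentivirus. The growth protocol of all 4 samples says T47D, but 3 of the source names hold other cell line names, each different, whose numbers follow on from that of T47D. A single hairpin was used on these arrays, and FDXR itself has no named probe, so the knockdown was not checked here. The study measured FDXR by Q-PCR and immunoblot in T47D cells with these hairpins. As a check of the cell type, 9 of 11 luminal breast markers had a named probe, 0 of these 9 lay below the median signal of all probes, and KRT18, KRT19, GATA3, XBP1, EPCAM and the progesterone receptor gene PGR were among them. The median log2 signal of an array lay between 4.76 and 4.78, and how far a probe stood over its background is unknown, so the number of arrays limits the precision.

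The 7 genes belong to unrelated families. SERHL2 encodes a predicted serine hydrolase of the alpha/beta hydrolase fold with no established substrate. LRRC31 encodes a leucine-rich repeat protein that interleukin-13 induces in airway and esophageal epithelium, where it has been linked to barrier function and to kallikrein proteases. BCAS1, breast carcinoma amplified sequence 1, was named for its amplification in breast tumors and is otherwise best known as a marker of oligodendrocytes that are forming myelin. ZSCAN12P1 is a transcribed pseudogene of a SCAN domain zinc finger gene. ANKFN1 encodes a protein with ankyrin repeats and a fibronectin type III domain, the human counterpart of the Drosophila sleep regulator wide awake. UHMK1, also called KIS, is a kinase with a U2AF homology motif that phosphorylates the splicing factor SF1, the microtubule regulator stathmin and the cell cycle inhibitor p27. PLS1 encodes plastin 1, or fimbrin, which bundles actin filaments in the microvilli of the intestine and in the stereocilia of the inner ear.

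The genes lie on different chromosomes, apart from LRRC31 and PLS1, which are both on chromosome 3. SERHL2 is on chromosome 22, ZSCAN12P1 on chromosome 6, BCAS1 on chromosome 20, ANKFN1 on chromosome 17 and UHMK1 on chromosome 1. RefSeq promoter sequences (GRCh38.p14) were matched for 5 of the 7, without BCAS1 and ZSCAN12P1. The 250 bases that end just before the first annotated base of the gene are shown for the genes with the largest higher signals, LRRC31 and SERHL2, and for PLS1, with a lower signal, because they differ in the short motifs that were searched. Capitals mark the matches.
LRRC31 (chr3:169869936-169870185, minus strand): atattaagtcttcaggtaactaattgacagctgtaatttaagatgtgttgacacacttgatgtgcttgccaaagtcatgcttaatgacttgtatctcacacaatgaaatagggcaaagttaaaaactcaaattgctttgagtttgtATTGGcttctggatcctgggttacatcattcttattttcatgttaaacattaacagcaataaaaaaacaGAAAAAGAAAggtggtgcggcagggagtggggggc
SERHL2 (chr22:42553706-42553955, plus strand): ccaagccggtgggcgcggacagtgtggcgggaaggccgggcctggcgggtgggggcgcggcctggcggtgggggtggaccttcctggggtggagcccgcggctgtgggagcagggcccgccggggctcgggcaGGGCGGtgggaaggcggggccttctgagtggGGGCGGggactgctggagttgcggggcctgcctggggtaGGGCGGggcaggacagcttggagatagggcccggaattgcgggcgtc
PLS1 (chr3:142596143-142596392, plus strand): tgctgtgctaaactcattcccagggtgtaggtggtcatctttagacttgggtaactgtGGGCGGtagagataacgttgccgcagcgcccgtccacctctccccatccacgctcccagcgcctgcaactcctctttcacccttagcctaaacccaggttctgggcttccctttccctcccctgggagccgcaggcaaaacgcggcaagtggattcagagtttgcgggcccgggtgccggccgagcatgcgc
The capitals in LRRC31 are the core of the interferon-stimulated response element (GAAA and GAAA with NN between them) and, further upstream, a CCAAT box on the other strand. Those in SERHL2 are 3 GC boxes (GGGCGG), and that in PLS1 is 1 GC box. On both strands of 35116 promoter windows of this length, the interferon-stimulated core was found in 3.02%, CCAAT in 32.0% and GGGCGG in 42.6%. The GC content was 36.8% for LRRC31, 76.8% for SERHL2 and 60.8% for this window of PLS1, against a median of 58.0% over all windows. The other windows, which lie within the annotated gene spans, held a GC box for UHMK1, the STAT site TTCNNNGAA for ANKFN1 (6.57% of windows) and a CCAAT box in 1 of the other 2 windows of PLS1. No window of the 5 genes held the estrogen response element (GGTCA and TGACC with NNN between them, 0.0399% of windows), the longer STAT site (TTC and GAA with NNNN between them, 5.38%), the AP-1 site TGANTCA (6.57%) or the TATA box TATAAA (10.7%). A match is only a stretch of letters and was not tested as a binding site.

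Of the 7 genes, 4 had higher signals in FDXR sh434 cells and 3 had lower ones. Because this contrast chose them, their values are given as a description with no test. Signals are log2 values, fold changes are differences of the mean log2 signal (FDXR sh434 minus shControl), and SD is over 2 arrays per condition.

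SERHL2 had log2 signals of 5.72 and 5.78 on the FDXR sh434 arrays, against 3.38 and 3.62 on the shControl arrays. The means were 5.75 ± 0.041 in FDXR sh434 cells and 3.5 ± 0.17 in shControl cells. This is a log2 fold change of 2.25, or 4.75-fold, the largest increase among all 38598 probes. Both shControl values lay below the array medians, so SERHL2 was a dim probe in control cells and above the median in FDXR sh434 cells. Since the background of the probe is unknown, this fold is that of the deposited signals and can understate the change in mRNA. LRRC31 had log2 signals of 8.49 and 8.48 on the FDXR sh434 arrays, against 6.38 and 6.21 on the shControl arrays, with means of 8.48 ± 0.0062 in FDXR sh434 cells and 6.3 ± 0.12 in shControl cells. The log2 fold change of 2.18, or 4.54-fold, was next in size to that of SERHL2. LRRC31 was above the array medians in both conditions.

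ZSCAN12P1 had log2 signals of 6.0 and 6.07 on the FDXR sh434 arrays, against 4.29 and 4.25 on the shControl arrays, a log2 fold change of 1.76 or 3.39-fold. The means were 6.03 ± 0.045 in FDXR sh434 cells and 4.27 ± 0.028 in shControl cells. Like SERHL2, this pseudogene was below the array medians in shControl cells and above them in FDXR sh434 cells, and the same limit holds for its fold. BCAS1 had log2 signals of 9.17 and 9.19 on the FDXR sh434 arrays, against 7.53 on both shControl arrays, a log2 fold change of 1.65 or 3.13-fold. Its means were 9.18 ± 0.017 in FDXR sh434 cells and 7.53 ± 0.00091 in shControl cells. Ordered by the log2 fold change, ZSCAN12P1 stood at place 6 and BCAS1 at place 9 from the top among all probes.

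**Figure D1:**
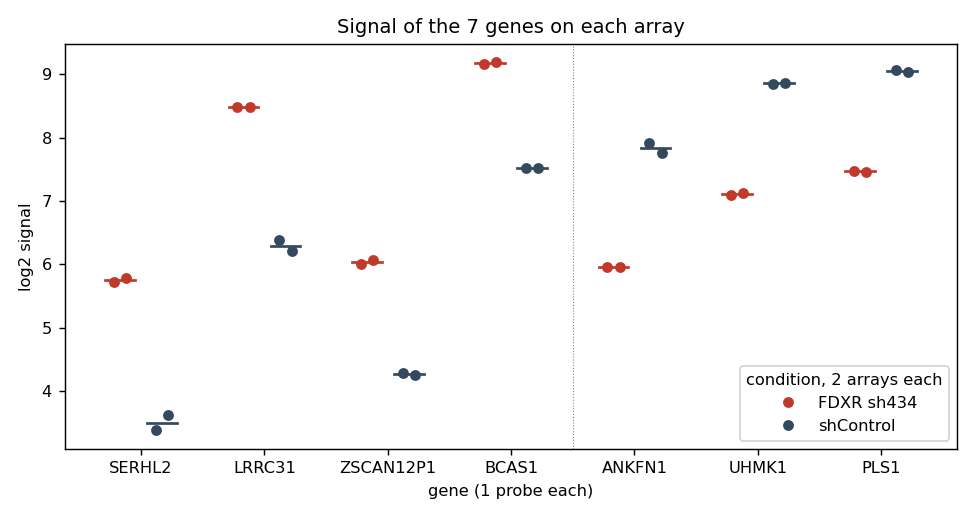
Log2 signal (y axis) of each of the 7 genes (x axis) on the 2 FDXR sh434 arrays (red) and the 2 shControl arrays (dark blue), with the mean as a line. The genes were chosen for the distance between the conditions, and the 2 arrays of a condition differ by at most 0.236.

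ANKFN1 had log2 signals of 5.96 on both FDXR sh434 arrays, against 7.92 and 7.76 on the shControl arrays, with means of 5.96 ± 0.002 in FDXR sh434 cells and 7.84 ± 0.11 in shControl cells. The log2 fold change of -1.88 corresponds to 27.1% of the control level and was place 10 from the bottom among all probes. UHMK1 had log2 signals of 7.09 and 7.13 on the FDXR sh434 arrays, against 8.85 and 8.87 on the shControl arrays, with means of 7.11 ± 0.029 in FDXR sh434 cells and 8.86 ± 0.012 in shControl cells. The log2 fold change of UHMK1 was -1.75, or 29.8% of the control level. PLS1 had log2 signals of 7.48 and 7.46 on the FDXR sh434 arrays, against 9.07 and 9.04 on the shControl arrays, a log2 fold change of -1.58 or 33.3% of the control level. The means of PLS1 were 7.47 ± 0.013 in FDXR sh434 cells and 9.05 ± 0.019 in shControl cells. UHMK1 stood at place 18 and PLS1 at place 33 from the bottom among all probes. All 3 genes stayed above the array medians in both conditions. Percentages of the control level are those of the deposited signals, so the limit of the unknown background holds here too. In whole-culture RNA, fewer cells that express a gene and less RNA per cell cannot be told apart.

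Both FDXR sh434 arrays lay above both shControl arrays for the 4 higher genes, as for 25.6% of all probes, and below them for the 3 lower genes, as for 23.1% of all probes. The choice of the genes fixes this count, so nothing is read from it. The replicate error of these genes is given as a description. The medians over all probes include dim probes, and the choice of the genes can also favour small differences between replicates. The FDXR sh434 arrays differed from each other by 0.00284 (ANKFN1) to 0.0643 (ZSCAN12P1) log2 units, against a median difference of 0.118 over all probes. The shControl arrays differed by 0.00128 (BCAS1) to 0.236 (SERHL2), against a median of 0.151 over all probes. SERHL2, LRRC31 (0.176) and ANKFN1 (0.154) exceeded that median in shControl cells, and the other 4 genes did not. The smallest distance between any FDXR sh434 array and any shControl array was 1.56, for PLS1, a distance that the choice of the genes also sets. Over all probes the median absolute log2 fold change was 0.149 and its 99th percentile 0.902.

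**Figure D2:**
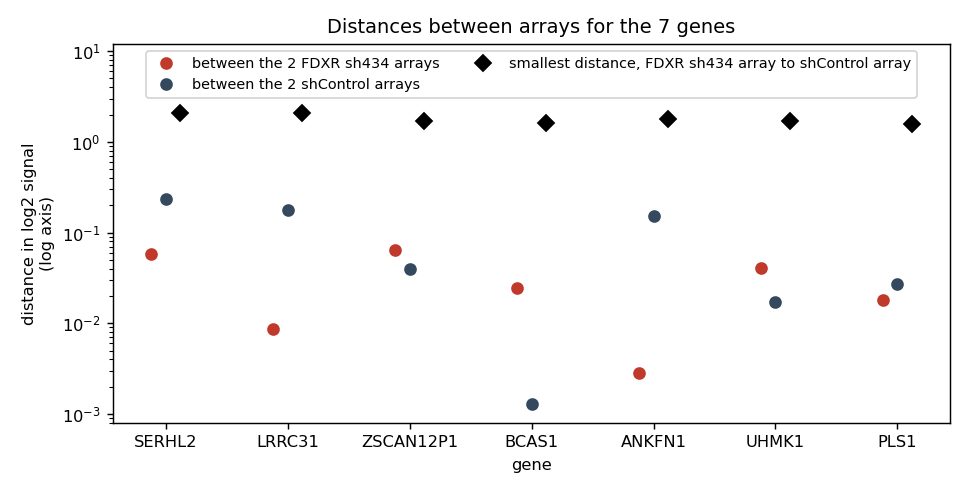
Distance in log2 signal (y axis, log scale) between the 2 FDXR sh434 arrays (red), between the 2 shControl arrays (dark blue) and between the nearest arrays of different conditions (black diamonds), for each gene (x axis). The distances between conditions, which the choice of the genes sets, run from 1.56 to 2.1, and the largest distance within a condition is 0.236, between the shControl arrays for SERHL2.

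To see whether the families and partners of these genes were shifted with them, 7 lists of related genes were drawn up, 1 for each gene, and 83 of their genes had a named probe. By limma, with p adjusted over all 38598 probes and a threshold of 0.05, 0 of the 83 rose and 0 fell with FDXR sh434, where 0.298% of all probes were higher and 0.402% lower. Without adjustment, 13 of the 83 were higher and 4 were lower at a p under 0.05, in a fit where 9.44% of all probes were higher and 7.82% lower at that level. In a robust limma fit with a signal-dependent spread, 6 were higher (7.23%) and 4 were lower (4.82%), beside 5.02% and 3.41% of all probes in this setting. These shares of all probes also apply to the counts of each list and marker set below. Where 0.298% and 0.402% of all probes are called, 0 calls in a short list say little. The log2 fold changes of the 83 genes ranged from -0.864 to 0.852, with a median of 0.078, while the median of all named genes was 0.029. The 7 genes were chosen for the size of their shifts, so smaller values in other genes follow from that choice.

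Neither of the other plastins had a lower mean signal in FDXR sh434 cells than in shControl cells. PLS3, the plastin of most non-muscle cells, had log2 signals of 8.62 and 8.62 on the FDXR sh434 arrays, against 8.50 and 8.43 on the shControl arrays. Its log2 fold change was 0.16 with a 95% interval of -0.10 to 0.41 (adjusted p = 0.495 from limma). LCP1, the plastin of leukocytes, had a log2 fold change of 0.15 with an interval of -0.14 to 0.45 (adjusted p = 0.566 from limma). EZR, which encodes the membrane-cytoskeleton linker ezrin, had one of 0.19 with an interval of -0.08 to 0.46 (adjusted p = 0.441 from limma). Of the 10 measured genes of actin bundles and microvilli, 0 were higher and 0 lower, also at an unadjusted p under 0.05 and with the signal-dependent spread, and their log2 fold changes ranged from -0.137 to 0.188.

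SERHL is a pseudogene that lies next to SERHL2 and resembles it in sequence, so hybridisation of transcripts of one to the probe of the other cannot be told apart from the probe's own target. SERHL had log2 signals of 5.55 and 5.76 on the FDXR sh434 arrays, against 5.21 and 5.33 on the shControl arrays, a log2 fold change of 0.39 with a 95% interval of 0.07 to 0.70 that did not pass (adjusted p = 0.216 from limma). The values of the SERHL and SERHL2 probes were not the same on any array. Of the 12 measured alpha/beta hydrolases, 0 were higher and 0 lower (3 and 1 at an unadjusted p under 0.05). With the signal-dependent spread ABHD4, a lysophospholipase of the N-acylethanolamine pathway, and ABHD10, a mitochondrial depalmitoylase, were higher and ABHD3, a phospholipase, was lower. Their log2 fold changes were 0.46 for ABHD4, 0.50 for ABHD10 and -0.86 for ABHD3, with adjusted p of 0.0154, 0.0208 and 0.0114 from limma in that setting. The brightest probes of the list were those of ABHD2, with a log2 fold change of 0.09 (adjusted p = 0.716 from limma), and ABHD5, the activator of triglyceride lipase, with one of 0.18 (adjusted p = 0.5 from limma).

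Of 15 measured genes that interleukin-13 induces in epithelia or that serve the epithelial barrier, 0 were higher and 0 lower (2 and 0 at an unadjusted p under 0.05). Their median log2 fold change was -0.0163, beside the 2.18 of LRRC31, a value for which LRRC31 was chosen. The interleukin-4 and interleukin-13 receptor chain IL4R had a log2 fold change of 0.05 with a 95% interval of -0.27 to 0.37 (adjusted p = 0.881 from limma). The chemokine gene CCL26 and the protease gene CAPN14 had log2 fold changes of -0.09 and -0.12. Both probes were dim, with mean log2 signals of 4.48 and 3.57, below the median of 4.76 over all probes. Of the 15 genes, 6 lay below that median, where the signals can understate a change in mRNA. Among the kallikreins, the skin protease genes KLK5 and KLK7 had log2 fold changes of -0.04 and 0.07, and KLK10 one of 0.45 (adjusted p = 0.204 from limma). ALOX15, the 15-lipoxygenase, had log2 signals of 6.26 and 6.18 on the FDXR sh434 arrays, against 5.64 and 5.75 on the shControl arrays. This log2 fold change of 0.53 passed with the signal-dependent spread (adjusted p = 0.0185) and not without it (adjusted p = 0.103 from limma), the 1 gene of this list to do so.

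The other breast carcinoma amplified sequences had log2 fold changes below the 1.65 of BCAS1, which follows from the choice of BCAS1 for its large shift. BCAS2, a splicing factor, had a log2 fold change of 0.23 (adjusted p = 0.457 from limma), BCAS3 one of 0.33 (adjusted p = 0.217) and BCAS4 one of 0.22 (adjusted p = 0.347), and BCAS3 passed with the signal-dependent spread (adjusted p = 0.0248). ZNF217, the zinc finger oncogene near BCAS1 on chromosome 20, had log2 signals of 8.59 and 8.57 on the FDXR sh434 arrays, against 8.67 and 8.60 on the shControl arrays. The log2 fold change of ZNF217 was -0.05 with a 95% interval of -0.31 to 0.21 (adjusted p = 0.854 from limma). That of ADNP, a chromatin regulator of the same arm, was 0.03 (adjusted p = 0.906 from limma). AURKA, the mitotic kinase Aurora A of the same arm, had a log2 fold change of -0.52 (adjusted p = 0.0941 from limma) and was the 1 gene of the 12 measured in this list that was lower with the signal-dependent spread (adjusted p = 0.0042). By limma without that spread 0 of the 12 were higher and 0 lower, and 1 and 1 at an unadjusted p under 0.05.

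ZSCAN12, the gene that ZSCAN12P1 resembles, had log2 signals of 4.58 and 4.47 on the FDXR sh434 arrays, against 4.12 and 4.12 on the shControl arrays. Its log2 fold change was 0.41 with a 95% interval of 0.14 to 0.67 (adjusted p = 0.151 from limma), beside the 1.76 for which the pseudogene was chosen. Transcripts of ZSCAN12 and ZSCAN12P1 that bind both probes cannot be told apart. Of the 16 measured SCAN and zinc finger genes of the same chromosome 6 cluster, 0 were higher and 0 lower. Without adjustment, at a p under 0.05, 5 were higher and 0 lower, beside 9.44% and 7.82% of all probes, and with the signal-dependent spread 1 was higher (6.25%), beside 5.02% of all probes. Their median log2 fold change was 0.242, against 0.029 over all named genes. Both FDXR sh434 arrays lay above both shControl arrays for 10 of them (62.5%), beside 25.6% of all probes, which include probes without a gene name. A high share of this kind was not particular to this list. It was 58.3% for the alpha/beta hydrolases (7 of 12) and 43.4% over all 83 related genes, these 16 included. Among the 7 lists, only the interleukin-13 and barrier list (3 of 15) lay below the share of all probes. ZNF165, an adjacent testis-type zinc finger gene, had log2 signals of 6.90 and 6.83 on the FDXR sh434 arrays, against 6.14 and 5.89 on the shControl arrays. Its log2 fold change of 0.85 did not pass (adjusted p = 0.0614 from limma), and it passed with the signal-dependent spread (adjusted p = 0.00203). TRIM27 and ZNF184, the brightest of the list, had log2 fold changes of 0.31 (adjusted p = 0.257 from limma) and 0.24 (adjusted p = 0.36).

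Of the 9 measured splicing factors with a U2AF homology motif and substrates of UHMK1, 0 were higher and 0 lower (1 and 1 at an unadjusted p under 0.05). SF1, the branch point binding protein that UHMK1 phosphorylates, had log2 signals of 8.72 and 8.74 on the FDXR sh434 arrays, against 8.62 and 8.61 on the shControl arrays, a log2 fold change of 0.11 with a 95% interval of -0.14 to 0.37 (adjusted p = 0.621 from limma). U2AF2, the large subunit of the splicing factor U2AF, had one of 0.14 (adjusted p = 0.593 from limma), and the splicing factor RBM39 one of -0.21 (adjusted p = 0.525). STMN1, the gene of stathmin, had a log2 fold change of 0.46 and PAM, which encodes an enzyme that amidates peptides and binds UHMK1, one of -0.39. These 2 passed with the signal-dependent spread (adjusted p = 0.0418 and 0.0106) and not without it (adjusted p = 0.143 and 0.158 from limma). Of 9 measured ankyrin repeat genes listed beside ANKFN1, 0 were higher and 0 lower (1 and 1 at an unadjusted p under 0.05). The brightest were ANKRD52, a phosphatase subunit, with a log2 fold change of 0.04 (adjusted p = 0.881 from limma), and ANKRD28, with one of -0.25 (adjusted p = 0.329). ANKS1B, a synaptic scaffold gene, had one of -0.53 (adjusted p = 0.0939) and passed with the signal-dependent spread (adjusted p = 0.0224).

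**Figure D3:**
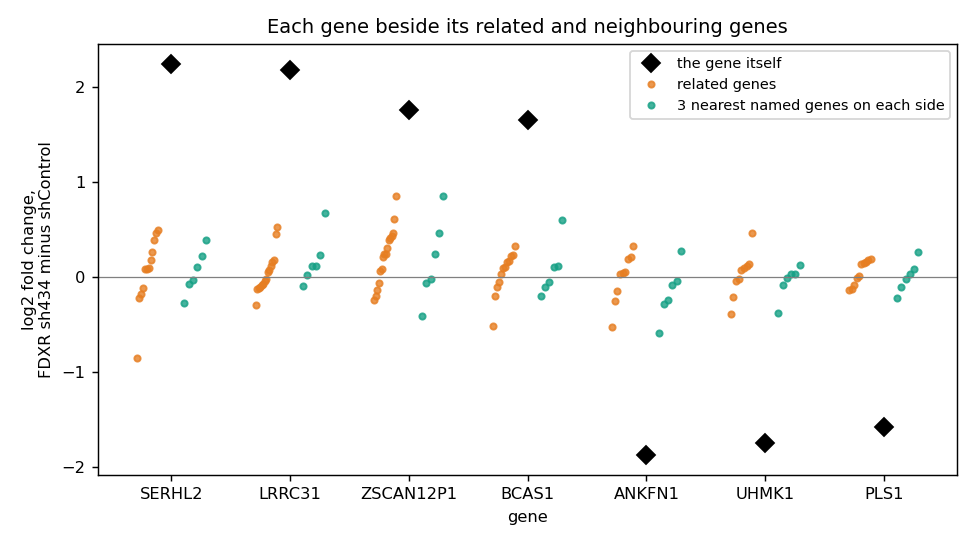
Log2 fold change, FDXR sh434 minus shControl (y axis), of each of the 7 genes (black diamonds) beside its list of related genes (orange) and the 3 nearest named genes on each side along the chromosome (green). The related genes lie between -0.864 and 0.852 and the neighbours between -0.591 and 0.852, while the 7 genes lie at -1.58 and below or at 1.65 and above. The 7 genes were chosen for the size of their shifts, so their distance from the other genes follows from that choice.

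To see whether the shifts extended along the chromosome, the 3 nearest genes with a named probe on each side of each gene were examined, 42 in all. Some of them, such as SERHL, ZNF165 and ZNF217, are also in the lists of related genes, so these sets are not independent. By limma 0 of the 42 were higher and 0 were lower, and at an unadjusted p under 0.05, 6 were higher and 4 were lower, beside 9.44% and 7.82% of all probes. With the signal-dependent spread 3 were higher (7.14%) and 1 was lower (2.38%), beside 5.02% and 3.41% of all probes. Their log2 fold changes ranged from -0.591 to 0.852, with a median of 0.00814. The higher ones were ZNF165 beside ZSCAN12P1, LRRIQ4, a leucine-rich repeat gene beside LRRC31, and the microRNA gene MIR4756, which lies within the span of BCAS1. The lower one was the noncoding RNA gene MTVR2 beside ANKFN1.

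LRRIQ4 had log2 signals of 5.08 and 5.34 on the FDXR sh434 arrays, against 4.68 and 4.41 on the shControl arrays, a log2 fold change of 0.67 (adjusted p = 0.123 from limma). LRRC34, another leucine-rich repeat gene beside LRRC31, was read by a dim probe, with log2 signals from 2.17 to 2.63 on the 4 arrays. Its log2 fold change of 0.11 (adjusted p = 0.795 from limma) therefore says little. SEC62, a protein translocation factor gene also beside LRRC31, had one of 0.11 (adjusted p = 0.643). MIR4756 had log2 signals of 6.19 and 6.57 on the FDXR sh434 arrays, against 5.75 and 5.81 on the shControl arrays, a log2 fold change of 0.60 (adjusted p = 0.147 from limma). RNA of BCAS1 that carries the MIR4756 sequence cannot be told apart from that of the microRNA gene on its probe. MTVR2 had log2 signals of 4.2 on both FDXR sh434 arrays, against 4.81 and 4.76 on the shControl arrays, a log2 fold change of -0.59 (adjusted p = 0.0784 from limma).

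Around the other genes of lower signal, UAP1 beside UHMK1, which makes the sugar donor for O-GlcNAc and N-glycans, had a log2 fold change of -0.01 with a 95% interval of -0.27 to 0.26 (adjusted p = 0.977 from limma). The checkpoint kinase gene ATR and the exonuclease gene XRN1, both beside PLS1, had log2 fold changes of 0.03 (adjusted p = 0.941 from limma) and 0.26 (adjusted p = 0.335). Beside SERHL2, CYB5R3, the cytochrome b5 reductase, had one of -0.03 with an interval of -0.30 to 0.24 (adjusted p = 0.916 from limma). The annotation also places antisense genes over BCAS1 (BCAS1-AS1) and PLS1 (PLS1-AS1), and a pseudogene, RRP7BP, overlaps SERHL2. None of these 3 has a named probe, and they were not used here.

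The genes most like each of the 7 were sought by the root mean square distance, in log2 units, between 4-array profiles after each gene's mean was removed, among named genes at or above the median signal. Over 4 arrays this distance mostly reflects the size of the fold change and is a description. The nearest gene to both SERHL2 and LRRC31 was BAMBI, a decoy receptor that dampens TGF-beta signalling, at a distance of 0.13 from each. BAMBI had log2 signals of 10.09 and 10.06 on the FDXR sh434 arrays, against 8.0 and 8.10 on the shControl arrays. LRRC31 was at 0.15 from SERHL2, and CEACAM6, a cell adhesion gene, was at 0.27 from LRRC31, with shControl arrays that stood further apart from each other (FDXR sh434 6.53 and 6.49, shControl 5.07 and 4.48). ZSCAN12P1 and BCAS1 were at 0.062 from each other. TM4SF1, a tetraspanin-like surface protein gene, was at 0.11 from ZSCAN12P1 and at 0.08 from BCAS1, and UPK1A, a uroplakin of the urothelium, was at 0.13 from BCAS1.

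Among the genes of lower signal, UHMK1 was at 0.085 from PLS1 and at 0.091 from ANKFN1. The nearest gene to ANKFN1 was LUM, which encodes the matrix proteoglycan lumican, at 0.086. LUM had log2 signals of 3.97 and 4.21 on the FDXR sh434 arrays, against 6.04 and 5.87 on the shControl arrays. MATN3, which encodes the cartilage matrix protein matrilin 3, was at 0.088 from UHMK1 and at 0.14 from ANKFN1. The genes nearest to PLS1 were MBOAT1, a lysophospholipid acyltransferase, at 0.021, LIN28A, which binds let-7 precursors, at 0.03, and the noncoding RNA gene SNAR-D at 0.06. MBOAT1 had log2 signals of 7.48 and 7.45 on the FDXR sh434 arrays, against 9.04 and 8.99 on the shControl arrays.

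**Figure D4:**
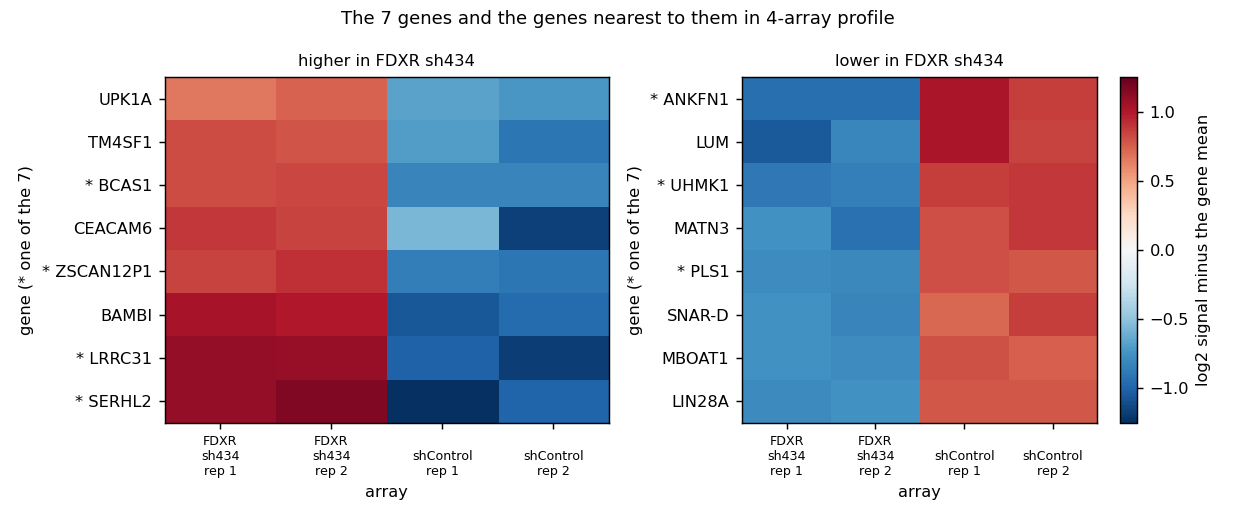
Log2 signal minus the gene's mean over 4 arrays (colour) for the 7 genes (asterisks) and the genes nearest to them in profile (rows), on the 2 FDXR sh434 and 2 shControl arrays (columns). Both arrays of a condition lie on the same side of the gene's mean in every row, and CEACAM6 has the widest difference between shControl arrays (5.07 and 4.48).

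LUM is also a marker of fibroblasts, and it was lower in FDXR sh434 cells with a log2 fold change of -1.86 (adjusted p = 0.0213 from limma), alongside ANKFN1, UHMK1 and PLS1. This call ended without any 1 of the arrays and with the replicate number as a block, since 0 of all probes passed in those fits. Of 6 fibroblast markers 2 had a named probe, and only LUM was lower. The other one, decorin (DCN), had log2 signals of 2.24 and 2.28 on the FDXR sh434 arrays, against 2.13 and 2.16 on the shControl arrays. This dim probe had a log2 fold change of 0.11 (adjusted p = 0.621 from limma). The part of other cells in the lower signals was not tested. Of the measured markers of basal cells (2 of 6), leukocytes (2 of 5) and endothelium (3 of 4), 0 were higher and 0 lower, also at an unadjusted p under 0.05, and all 7 were below the median signal. The luminal markers had 0 higher and 0 lower of 9 by limma (1 and 2 at an unadjusted p under 0.05), and 1 higher and 1 lower with the signal-dependent spread. PGR had log2 signals of 10.62 and 10.64 on the FDXR sh434 arrays, against 11.45 and 11.32 on the shControl arrays, a log2 fold change of -0.75 (adjusted p = 0.0575 from limma, and 8.26e-05 with the signal-dependent spread). The keratin gene KRT18 had a log2 fold change of 0.26 (adjusted p = 0.287 from limma, and 0.0105 with the signal-dependent spread), and the estrogen receptor gene ESR1 one of -0.37 (adjusted p = 0.236 from limma, and 0.0513 with that spread).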

How the data were processed

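Total RNA of 2 FDXR sh434 and 2 shControl samples was hybridised to Affymetrix arrays. The authors deposited log2 signals on 1 scale. How arrays were summarised and scaled was not given in the sources used here. According to the submitters' processing notes, limma 3.50.3 was used. Probes were named through the array's annotation, with 1 symbol for 15715 of 38598 probes and none for 22883, and a gene was represented by its brightest probe. Conditions were compared in R 4.3.3 through limma 3.58.1 (lmFit, then eBayes), with condition as the only term, 2 residual and 3.45 prior degrees of freedom and Benjamini-Hochberg adjustment over all probes at 0.05. Intervals are limma's 95% intervals. Python 3.11.15 and matplotlib 3.10.9 were also used, and the fit was tested on simulated data with independent normal noise. That test checked the direction and mean size of planted changes, and its number of false calls is not reported here.

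The 7 genes, the lists, the markers and the alternatives were chosen with earlier results of these data known. Named were the 7 genes, every gene of a list or among the neighbours that passed, the 2 brightest others of each, and the 3 genes nearest in profile. Other listed genes, such as those called with the signal-dependent spread, close copies and known partners, were named after their values were seen. Neighbours follow the order of RefSeq genes in GRCh38.p14. No build of the arrays was found, so positions are those of RefSeq promoters only. Protein sequences were not used here. Alternatives were a signal-dependent spread (eBayes with an intensity trend, robust), quantile normalization, a replicate block, centring on the median, probes under the median signal left out, named probes only, other numbers of neighbours and each array left out in turn. The p-values measure only the spread between these samples.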

Additional observations from a re-analysis of the deposited data

How the results depend on the processing

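The direction of the 7 genes was the same under quantile normalization, median centring, the replicate block and without any 1 of the 4 arrays. The choice of the genes on these arrays sets this outcome, so it is a description and no support. A replicate block cannot change a difference of means in this balanced design. With a smallest distance of 1.56 between arrays of different conditions, leaving out 1 array could not reverse a direction. The log2 fold changes of the 7 genes shifted by at most 0.12. Of 49 values, 3 moved by more than the SD between replicates, all under quantile normalization (BCAS1 1.62, UHMK1 -1.79 and PLS1 -1.63). The smallest size among the 7 was 1.58, and 1.62 after quantile normalization. Without any 1 array it was 1.57 to 1.6, and SERHL2, which varied most, ranged from 2.13 to 2.37. The mean of several probes was not run, since each gene has 1 named probe.

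Calls by limma depended on the setting. Over all probes 115 were higher and 155 lower. With the signal-dependent spread 1937 were higher and 1318 lower (5.02% and 3.41%), without the dim probes 1546 and 995 of 19299 (8.01% and 5.16%), and with named probes only 390 and 297 of 15715 (2.48% and 1.89%). Deviations of same-numbered arrays had a correlation of 0.00196 over all probes and 0.0268 over probes at or above the median signal. Such a correlation cannot show whether same-numbered samples were handled together, and the labels give only a number. The replicate block left 0 calls in either direction (6268 probes had an unadjusted p under 0.05), and without any 1 array 0 and 0 (3839 to 6823 at an unadjusted p under 0.05). Of the 83 related genes, 0 were higher and 0 lower in the fit over all probes, 6 and 4 with the signal-dependent spread, 5 and 4 of 61 without the dim probes and 2 and 2 with named probes only. Of the 42 neighbours, 0 were higher and 0 lower, 3 and 1 with the signal-dependent spread, 3 and 0 of 27 without the dim probes and 1 and 1 with named probes only. With 2 or with 5 neighbours on each side 0 were called. The cause was not tested.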
